A study of Mus musculus with 8 samples.

Results

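The retinoblastoma (RB) family and the E2F transcription factors were examined as 10 genes, Rb1, Rbl1, Rbl2, E2f1, E2f2, E2f3, E2f4, E2f5, E2f7 and E2f8, taken by symbol from a table of 53697 mouse genes. All 10 passed the filter on low counts, as did 18322 genes in all. RNA was sequenced from tumor cells of 4 mice, 2 PyMT-Dll1-GFP mice (GFP mice 1 and 2) and 2 PyMT-Dll1-mCh mice (mCh mice 3 and 4). Each mouse carried the MMTV-PyMT transgene, which drives the polyoma middle T antigen from the mammary tumor virus promoter, and a reporter of Dll1, the gene of a Notch ligand. The GFP reporter is a knock-in at Dll1 that also carries Cre-ERT2, and the mCherry reporter is a transgene made from a bacterial artificial chromosome. Every group therefore shared the PyMT tumor background, and the reporters differed in construct as well as in color. From the spontaneous mammary tumors of each mouse, cells lacking CD45, CD31 and Ter119 were sorted into reporter-positive (Dll1+) and reporter-negative (Dll1-) fractions, which gave 8 libraries, 1 of each fraction per mouse. The age of the mice and the number of tumors pooled per mouse are not given in the sources used here.

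RB and its relatives p107 (Rbl1) and p130 (Rbl2) are pocket proteins that bind E2F factors and hold their target genes down. Cyclin-dependent kinases phosphorylate the pocket proteins in late G1, E2F is released, and genes for DNA replication are transcribed. E2f1, E2f2 and E2f3 are known as activators, E2f4 and E2f5 as repressors that work with p130 and p107 in quiescent and early G1 cells, and E2f7 and E2f8 as atypical repressors that need no pocket protein and no dimer partner. RB is controlled largely by phosphorylation, so its mRNA level is not a measure of its activity.

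Library totals ran from 27301396 to 123907626 counts. Dll1 itself was at 7.60, 13.7, 34.7 and 50.3 CPM, a count scaled to the size of its library, in the Dll1- libraries of mice 1 to 4 and at 87.4, 138, 203 and 249.9 CPM in the Dll1+ libraries, higher in Dll1+ in each mouse. Markers of fibroblasts, which the sort did not exclude, summed to 1246 to 1456 CPM in the GFP libraries, 3683 and 3816 CPM in the Dll1+ and 8394 and 23860 CPM in the Dll1- libraries of the mCh mice, and all 8 were detected in every library. Immune markers summed to 64.4 to 85.9 CPM in the GFP libraries and to 151 to 374 CPM in the mCh libraries, and endothelial markers to 45.6 to 50.7 and 80.7 to 336 CPM. Over the 4 mice none of these 3 lists held a call in edgeR, with 0, 2 and 0 genes at an unadjusted p under 0.05 for fibroblast, immune and endothelial markers and 0, 0 and 1 called by DESeq2. In the mCh mice alone 4 of 8 fibroblast, 6 of 7 immune and 2 of 7 endothelial markers were lower in Dll1+. Epithelial markers summed to 4795 to 8835 CPM, and 1 of 7, the basal keratin Krt5, was called in edgeR, higher in Dll1+ by 2.77 on the log2 scale (adjusted p = 0.00730). DESeq2 called 6 of the 7, and the median log2 fold change of the list was 0.31, with 2 markers below 0.

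The sequences before the transcription start are shown for the members whose RefSeq promoter window held an E2F-type motif, and for E2f8, the member with the largest fold change between fractions. RefSeq (GRCm38.p6) gave windows of 300 bases, 250 before and 50 after the start, for 7 of the 10 genes. Rb1, E2f4 and E2f5 had none in the table. The E2F-type letters searched on both strands were TTTCCCGC, TTTGGCGC, TTTCGCGC and TTTGCCGC, at least 1 of which stood in 2.26% of all 32817 windows. The cell cycle homology element, TTTGAA, was searched likewise and stood in 17.9% of windows, and the motif CCAAT in 37.4%. None of these 3 kinds of motif overlapped another in the stretches printed here. Capitals mark E2F-type and TTTGAA matches, which read as the reverse complement where the match was on the other strand.
Rbl1, chr2:157204535-157204784, minus strand, before the start: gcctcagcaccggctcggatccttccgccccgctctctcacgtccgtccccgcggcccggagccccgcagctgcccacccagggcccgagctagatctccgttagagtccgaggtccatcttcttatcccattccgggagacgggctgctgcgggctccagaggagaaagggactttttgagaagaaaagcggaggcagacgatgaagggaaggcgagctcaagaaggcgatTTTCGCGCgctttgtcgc
E2f2, chr4:136172294-136172323, plus strand, after the start: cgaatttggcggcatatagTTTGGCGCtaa
E2f7, chr10:110745189-110745438, plus strand, before the start: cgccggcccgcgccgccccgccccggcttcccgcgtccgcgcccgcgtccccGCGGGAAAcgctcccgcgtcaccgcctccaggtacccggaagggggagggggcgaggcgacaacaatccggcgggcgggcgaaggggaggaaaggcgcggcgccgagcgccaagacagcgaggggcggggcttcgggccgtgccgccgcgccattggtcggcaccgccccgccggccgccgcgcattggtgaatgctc
E2f8, chr7:48881597-48881846, minus strand, before the start: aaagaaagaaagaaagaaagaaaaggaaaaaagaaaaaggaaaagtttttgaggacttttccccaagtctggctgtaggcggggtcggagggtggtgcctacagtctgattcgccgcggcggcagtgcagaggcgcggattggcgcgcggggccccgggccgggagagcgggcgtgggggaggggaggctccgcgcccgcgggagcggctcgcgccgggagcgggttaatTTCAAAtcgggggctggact
E2f3, chr13:29986064-29986313, minus strand, before the start: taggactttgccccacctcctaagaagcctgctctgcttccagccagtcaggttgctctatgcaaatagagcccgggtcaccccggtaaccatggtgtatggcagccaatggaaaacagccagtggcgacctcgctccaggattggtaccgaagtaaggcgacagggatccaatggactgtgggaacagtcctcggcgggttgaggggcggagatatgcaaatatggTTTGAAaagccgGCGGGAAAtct

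The Rbl1 sequence held TTTCGCGC 18 bases before the start, and E2f2 held TTTGGCGC 40 bases after it. E2f7 held TTTCCCGC on the opposite strand 198 bases before its start, and E2f3 held the same letters on the opposite strand 11 bases before its start. E2f8 held no E2F-type letters but TTTGAA on the opposite strand 20 bases before the start, and E2f3 held TTTGAA 23 bases before it. TTTGAA also stood 31 bases before a second RefSeq start of E2f2 and, on the opposite strand, 201 bases before the Rbl2 start. CCAAT stood in the windows of E2f2, E2f3, E2f7 and E2f8, on the opposite strand 14 and 46 bases before the start in E2f7 and 112 bases before it in E2f8. The Rbl2 window held no E2F-type letters. Neither did the E2f1 window, but it lay inside the GENCODE gene model. The sequence before the GENCODE start of E2f1 was thus not searched. With E2f1 left aside, members with and without an E2F-type match both include genes lower in Dll1+ cells and genes that did not pass the test, as described next.

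The first question was which of the 10 genes differed between Dll1+ and Dll1- cells of the same tumors. Over the 4 mice, Rb1 and E2f5 were higher in Dll1+ cells, and Rbl1, E2f1, E2f2, E2f7 and E2f8 were lower. The largest increase was that of Rb1, 1.94-fold, and the largest decrease that of E2f8, 2.55-fold. Rbl2, E2f3 and E2f4 did not pass the threshold, an adjusted p of 0.05 over all tested genes. These 7 calls among 10 members stood against 14.0% of all tested genes called in either direction. By direction, 2 of the 10 were higher against 6.98% of tested genes and 5 were lower against 7.04%. The median log2 fold change was -0.34 over the 10 members and -0.00068 over all tested genes. The members were chosen with earlier results of these data known. In bulk sorted RNA, fewer cells expressing a gene and less of its RNA per cell cannot be told apart.

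**Figure D1:**
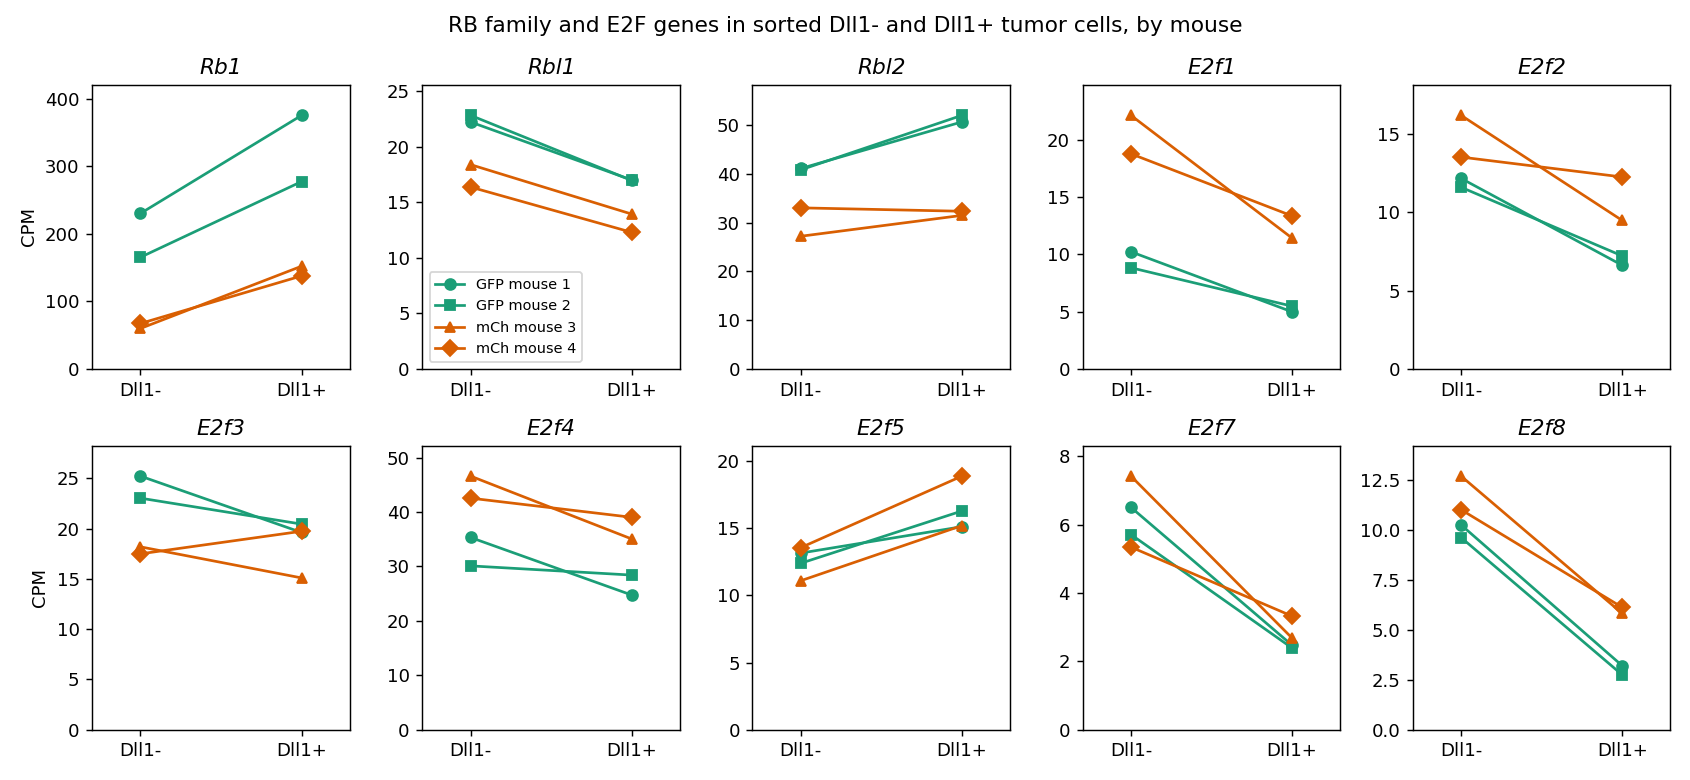
CPM of each gene (linear axis from 0) in the Dll1- and Dll1+ library of each mouse, joined by a line per mouse, with GFP mice in green and mCh mice in orange. All 4 lines rise for Rb1 and E2f5 and fall for Rbl1, E2f1, E2f2, E2f4, E2f7 and E2f8, and Rb1 lies lower and E2f1 higher in the mCh mice than in the GFP mice.

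Among the pocket proteins, Rb1 (ENSMUSG00000022105.6, chromosome 14, 73183673 to 73325822, minus strand) encodes RB itself. In Dll1- cells it was at 230.4, 165, 59.9 and 67.4 CPM in mice 1 to 4, and in Dll1+ cells at 376, 278, 152 and 138 CPM. Rb1 rose in each mouse, but the fractions overlapped across mice because both mCh Dll1+ libraries lay below both GFP Dll1- libraries. On the log2 scale Rb1 was higher by 0.96 in the fit over 4 mice (SE 0.12), with an edgeR adjusted p of 0.00978, and the differences within mice were 0.71, 0.75, 1.34 and 1.03. Rb1 stayed called when any 1 mouse was left out, with log2 fold changes from 0.83 to 1.04. Lpar6 and part of Rcbtb2 lie within the Rb1 locus on the opposite strand. They were at 13.4 to 23.7 and 33.9 to 49.3 CPM over the 8 libraries, below the lowest Rb1 value in each case.

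Rbl1 (ENSMUSG00000027641.13, chromosome 2, 157145893 to 157204534, minus strand) encodes p107, a pocket protein most abundant in cycling cells. It was at 22.2, 22.8, 18.4 and 16.4 CPM in Dll1- and at 17.0, 17.0, 13.9 and 12.3 CPM in Dll1+ cells of mice 1 to 4. Rbl1 had the most even shift of the 10 genes, with within-mouse log2 differences of -0.39, -0.43, -0.40 and -0.41, and the fractions overlapped only through the reporters. Over the 4 mice this came to -0.41 on the log2 scale (SE 0.07), with an adjusted p of 0.0171.

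Rbl2 (ENSMUSG00000031666.15, chromosome 8, 91070057 to 91123844, plus strand) encodes p130, the pocket protein that with E2f4 represses cell cycle genes in quiescent cells. It was at 41.1, 40.8, 27.2 and 33.0 CPM in Dll1- and at 50.7, 52.0, 31.5 and 32.3 CPM in Dll1+ cells. It was higher in Dll1+ in mice 1, 2 and 3 and slightly lower in mouse 4, where the log2 difference was -0.03. A log2 difference of 0.21 (SE 0.08) did not pass the test over 4 mice (adjusted p = 0.131), and it passed without mCh mouse 4, at 0.28 (adjusted p = 0.0485). Rbl2 overlaps Aktip, on the opposite strand, over 12061 bases, and Aktip was at 41.5 to 58.8 CPM. The kit preserves strand, and the strand setting of the quantification is not given in the sources used here.

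The activators E2f1, E2f2 and E2f3 all had negative fitted differences, of which those of E2f1 and E2f2 passed the test. The activators were not tested against each other. E2f1 (ENSMUSG00000027490.17, chromosome 2, 154559407 to 154569892, minus strand), which drives entry into S phase, was at 10.2, 8.83, 22.1 and 18.8 CPM in Dll1- and at 4.98, 5.47, 11.4 and 13.4 CPM in Dll1+ cells. Each mouse had less E2f1 in Dll1+, and both mCh Dll1+ libraries still lay above both GFP Dll1- libraries, so the fractions overlapped. Fitted over the 4 mice, the difference was -0.79 on the log2 scale with an SE of 0.12 (adjusted p = 0.0145).

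E2f2 (ENSMUSG00000018983.9, chromosome 4, 136172394 to 136196057, plus strand), also an activator, was at 12.2, 11.6, 16.2 and 13.5 CPM in Dll1- and at 6.62, 7.22, 9.48 and 12.3 CPM in Dll1+ cells. All 4 mice had less in Dll1+, but mouse 4 differed least, by -0.14 on the log2 scale against -0.68 to -0.87 in mice 1 to 3. With an SE of 0.14, the fitted difference of -0.62 (log2) passed the test at an adjusted p of 0.0416. E2f3 (ENSMUSG00000016477.18, chromosome 13, 29906575 to 29986063, minus strand), which encodes an activator and a shorter isoform from a second start, was at 25.2, 23.0, 18.2 and 17.5 CPM in Dll1- and at 19.6, 20.4, 15.1 and 19.7 CPM in Dll1+ cells. It was lower in mice 1 to 3 and higher in mouse 4, and the fitted difference of -0.16 (log2, SE 0.10) did not pass the test (adjusted p = 0.332).

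The repressors E2f4 and E2f5 pointed in different directions. E2f4 (ENSMUSG00000014859.9, chromosome 8, 105297663 to 105305370, plus strand), the main E2F of quiescent cells, was at 35.3, 30.1, 46.6 and 42.5 CPM in Dll1- and at 24.7, 28.4, 35.0 and 39.0 CPM in Dll1+ cells. All 4 mice were lower in Dll1+, by 0.08 to 0.51 on the log2 scale. This decrease, -0.28 in the fit (log2, SE 0.09), missed the threshold in edgeR (adjusted p = 0.0915) and passed it in DESeq2 (adjusted p = 0.0421).

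E2f5 (ENSMUSG00000027552.14, chromosome 3, 14578641 to 14606309, plus strand), which binds p130 and also takes part in TGF-beta signaling with SMAD proteins, was at 13.2, 12.4, 11.1 and 13.6 CPM in Dll1- and at 15.1, 16.3, 15.2 and 18.9 CPM in Dll1+ cells. The 4 Dll1+ libraries all lay above the 4 Dll1- libraries. The fit over 4 mice gave an increase of 0.38 (log2, SE 0.08) at an adjusted p of 0.0366. With any 1 mouse left out E2f5 no longer passed in edgeR, and without mCh mouse 4 it was at 0.35 (adjusted p = 0.0679).

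The atypical repressors had the largest decreases of the 10 genes. E2f7 (ENSMUSG00000020185.16, chromosome 10, 110745439 to 110787384, plus strand) was at 6.51, 5.71, 7.42 and 5.35 CPM in Dll1- and at 2.47, 2.39, 2.68 and 3.32 CPM in Dll1+ cells. E2f8 (ENSMUSG00000046179.17, chromosome 7, 48866429 to 48881596, minus strand) was at 10.3, 9.63, 12.7 and 11.0 CPM in Dll1- and at 3.21, 2.75, 5.82 and 6.13 CPM in Dll1+ cells. For both genes every Dll1+ library lay below every Dll1- library. Over the 4 mice E2f7 was at -1.20 (log2, SE 0.18) with an adjusted p of 0.0140, and E2f8 at -1.35 (SE 0.19) with an adjusted p of 0.0125. Within mice, the ratio of Dll1- to Dll1+ ran from 1.60 to 2.74 for E2f7 and from 1.79 to 3.47 for E2f8.

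Non-overlapping fractions were thus seen for 1 member in the higher direction, against 2.74% of tested genes, and for 2 members in the lower direction, against 3.33%. All 4 mice agreed in sign for 2 members higher in Dll1+, against 21.4% of tested genes, and for 6 members lower, against 19.9%. The calls over the 4 mice rested on the mouse term, which takes up differences between reporters as well as between mice of a reporter. Without the mouse term none of the 10 members was called in edgeR, 5 had an unadjusted p under 0.05, and 0 of the 18322 tested genes were called. With reporter groups but no mouse term, 1 member was called in the GFP mice, against 1.5% of tested genes. In the mCh mice 0 members were, against 1.16%. With 1 mouse left out, 1 member, Rb1, was called without GFP mouse 1, against 2.25% of tested genes. Without GFP mouse 2, 3 members (Rb1, E2f1 and E2f8) were called, against 4.16%. Without mCh mouse 3, 1 member (Rb1) was called, against 2.28%, and without mCh mouse 4, 7 members were, against 13.1%.

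**Figure D2:**
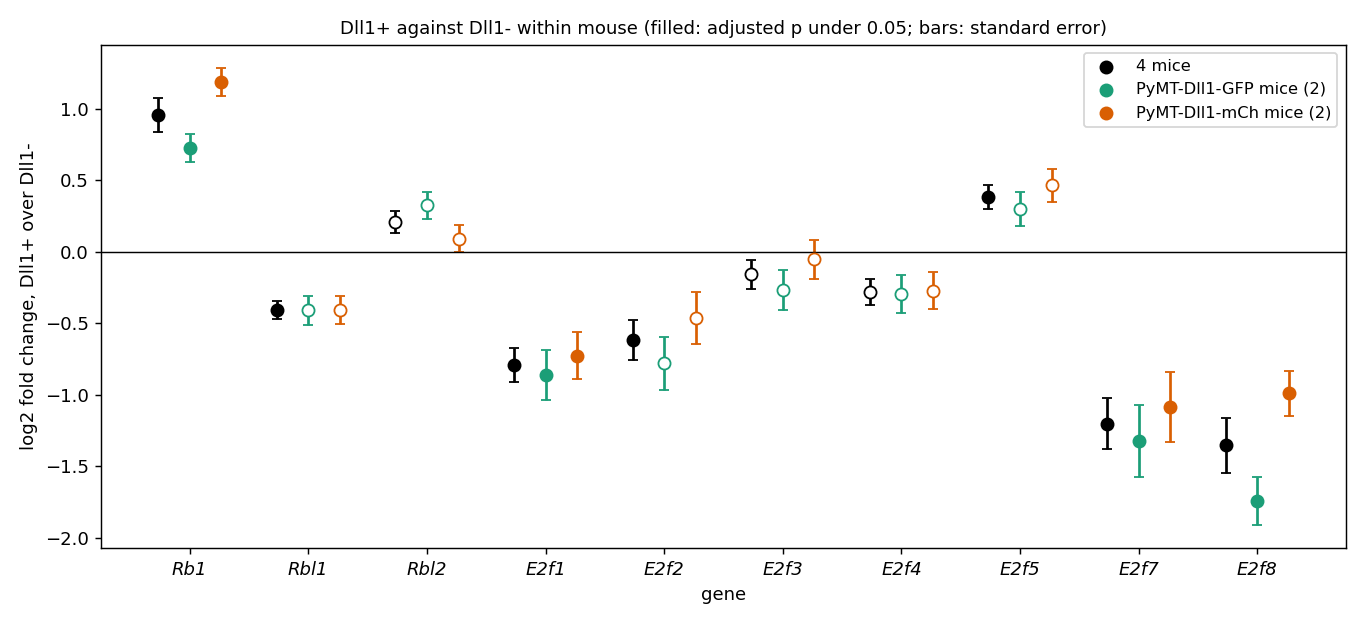
Log2 fold change of Dll1+ over Dll1- for each gene (vertical axis) over 4 mice (black), the 2 GFP mice (green) and the 2 mCh mice (orange), with bars of 1 standard error and filled points where the adjusted p is under 0.05. Rb1 is filled and above 0, and E2f1, E2f7 and E2f8 are filled and below 0, in all 3.

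The same genes were then compared within each reporter. In the GFP mice 4 members were called, against 9.13% of tested genes. Rb1 was higher (log2 fold change 0.73, SE 0.10, adjusted p = 0.0107), 1 of 10 against 4.29% of tested genes. E2f1 (-0.86, adjusted p = 0.0335), E2f7 (-1.32, adjusted p = 0.0278) and E2f8 (-1.74, adjusted p = 0.00447) were lower, 3 of 10 against 4.84%. In the mCh mice 4 members were again called, against 11.8% of tested genes. Rb1 was higher (1.19, SE 0.10, adjusted p = 0.00705), 1 of 10 against 5.51%, and E2f1 (-0.73, adjusted p = 0.0405), E2f7 (-1.09, adjusted p = 0.0398) and E2f8 (-0.99, adjusted p = 0.0180) were lower, 3 of 10 against 6.25%. The 4 genes called are the same in both reporters.

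The other 6 members passed the test in neither reporter. Rbl1 was at -0.41 in both (adjusted p = 0.0603 in the GFP and 0.0516 in the mCh mice), and E2f5 at 0.30 and 0.47 (adjusted p = 0.170 and 0.0503). E2f2 was at -0.78 in the GFP mice and -0.46 in the mCh mice (adjusted p = 0.0533 and 0.145). Rbl2 was at 0.33 and 0.09, E2f3 at -0.27 and -0.05 and E2f4 at -0.30 and -0.27. With 2 mice per reporter these calls depended on single animals. Without GFP mouse 1 or GFP mouse 2, no member was called in the GFP comparison in edgeR (4 and 6 members had an unadjusted p under 0.05), and without mCh mouse 3 only Rb1 was called in the mCh comparison. Fitted on the mCh libraries alone, no member and none of 19945 genes was called, although 7 members had an unadjusted p under 0.05 in edgeR.

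The difference of the Dll1 effect between reporters was tested as an interaction. No member passed in edgeR or in DESeq2, against 0.0710% of tested genes called in edgeR and 2.95% in DESeq2. In both tools 2 members, Rb1 and E2f8, had an unadjusted p under 0.05. The increase of Rb1 was larger in the mCh mice by 0.46 on the log2 scale (SE 0.14, adjusted p = 0.254), and the decrease of E2f8 was smaller there, the difference being 0.76 (SE 0.23, adjusted p = 0.260). For Rbl1 the difference was 0.0012 (SE 0.15). The mCh Dll1- libraries, to which the mCh differences refer, were also those with the highest sums of fibroblast markers, and the part of those cells in the member values was not tested.

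The reporters were next compared with each other in cells of the same Dll1 status. The reporter, the mice that carried it and the makeup of the sorted cells cannot be told apart here, since each reporter was carried by its own 2 mice. In Dll1- cells 4 members differed, against 36.6% of tested genes. Rb1 (log2 fold change of mCh over GFP -1.64, SE 0.21, adjusted p = 0.00259) and Rbl2 (-0.45, SE 0.12, adjusted p = 0.0233) were lower in mCh mice, 2 of 10 against 17.9% of tested genes. E2f1 (1.10, SE 0.17, adjusted p = 0.00409) and E2f4 (0.45, SE 0.13, adjusted p = 0.0358) were higher, 2 of 10 against 18.7%.

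In Dll1+ cells 6 members differed, against 30.6% of tested genes. Rb1 (-1.17, SE 0.20, adjusted p = 0.00918) and Rbl2 (-0.69, SE 0.12, adjusted p = 0.00827) were again lower in mCh mice, 2 of 10 against 15.4%. E2f1 (1.24, SE 0.17, adjusted p = 0.00531), E2f8 (1.01, SE 0.18, adjusted p = 0.00923), E2f2 (0.65, SE 0.18, adjusted p = 0.0364) and E2f4 (0.48, SE 0.13, adjusted p = 0.0341) were higher, 4 of 10 against 15.2%. For Rb1 and E2f1 the difference between reporters was larger than that between fractions, 3.11-fold for Rb1 and 2.15-fold for E2f1 in Dll1- cells against 1.94-fold and 1.73-fold. E2f5 and E2f7 were the members with the smallest differences between reporters in Dll1- cells, at -0.05 (SE 0.17) and 0.07 (SE 0.24). Without either GFP mouse no member and none of the tested genes was called by edgeR in either reporter comparison, where 2 to 5 members had an unadjusted p under 0.05. With only the 4 Dll1- libraries in the fit, 2 members, Rb1 and E2f1, were called, against 28.3% of tested genes. The fractions come from the same mice. With mouse as a random effect in limma-voom, E2f4 was no longer called in Dll1- cells, nor E2f2 and E2f4 in Dll1+ cells. This left 3 members called in Dll1- cells, against 33.2% of tested genes, and 4 in Dll1+ cells, against 27.6%.

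**Figure D3:**
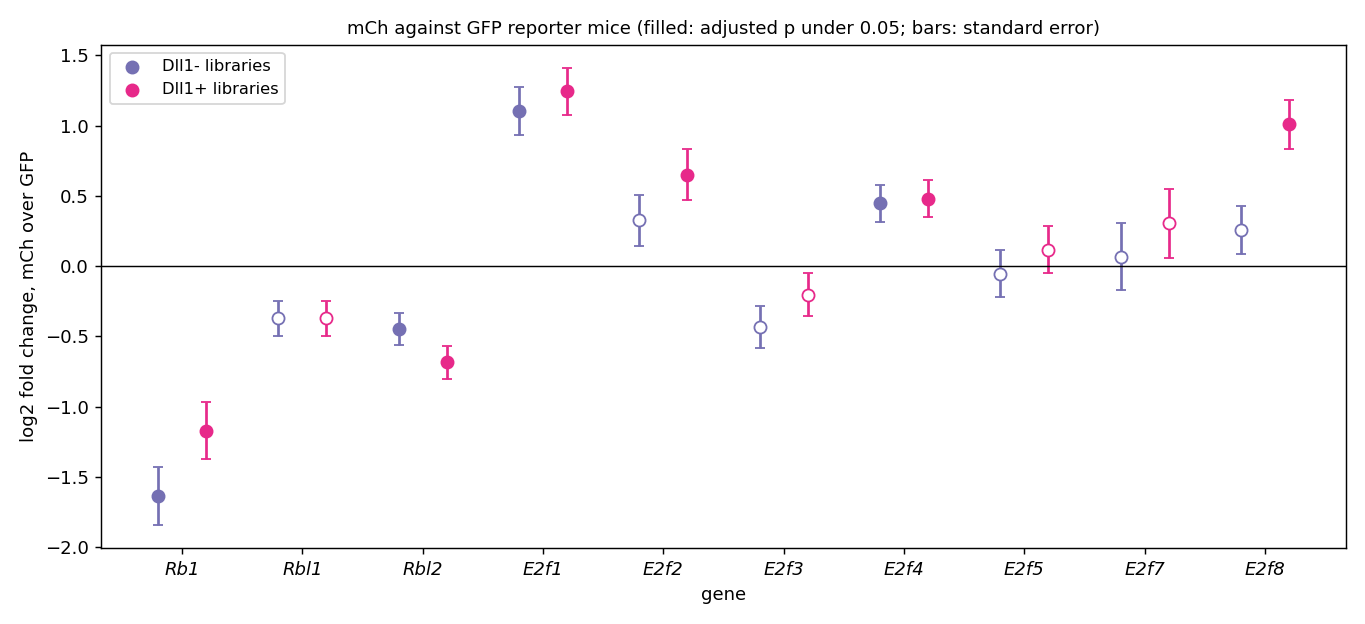
Log2 fold change of mCh over GFP mice for each gene (vertical axis) in Dll1- libraries (purple) and Dll1+ libraries (pink), 2 mice per reporter, with bars of 1 standard error and filled points where the adjusted p is under 0.05. Rb1 and Rbl2 lie below 0 and E2f1 and E2f4 above 0 in both, all filled, of which E2f4 was not called with mouse as a random effect.

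Levels were compared between genes as CPM per kb of merged exon length, as a description. In mean level Rb1 was the highest of the 10, at 30.5 ± 17.8 CPM per kb (SD, n = 8 libraries), followed by E2f4 at 14.4 ± 3.0 and E2f5 at 8.12 ± 1.38. Rb1 lay above E2f4 in 6 of the 8 libraries. It lay below E2f4 in the Dll1- libraries of mCh mice 3 and 4, at 9.97 and 11.2 against 19.0 and 17.3 CPM per kb. Rbl2 (5.10 ± 1.21), E2f1 (3.77 ± 1.92), E2f3 (3.66 ± 0.584), Rbl1 (2.92 ± 0.608) and E2f2 (2.28 ± 0.658) came next, and E2f8 (1.41 ± 0.684) and E2f7 (0.498 ± 0.222) were lowest. Neighbours in this order overlapped in range throughout, but E2f4 lay above E2f5, E2f5 above Rbl2, E2f3 above Rbl1, E2f2 above E2f8 and E2f8 above E2f7 in all 8 libraries. E2f1 lay above E2f3 in the 4 mCh libraries and below it in the 4 GFP libraries. Rbl2 was above E2f1 in 6 of the 8 libraries, and Rbl1 was above E2f2 in 5. With the length of the longest transcript the order of the 10 was the same.

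**Figure D4:**
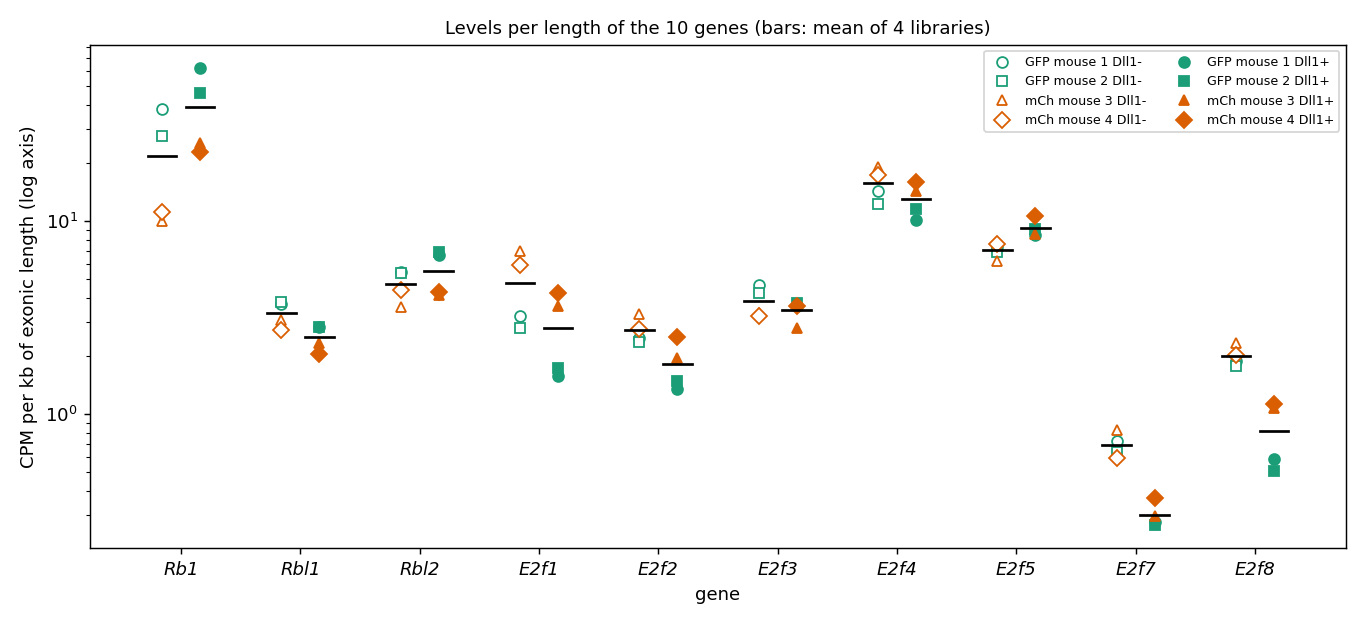
CPM per kb of merged exon length (log axis) of the 10 genes, with open points for Dll1- and filled points for Dll1+ libraries, green for GFP and orange for mCh mice, and a bar at the mean of each 4 libraries. Rb1 is the highest and E2f7 the lowest gene in mean level.

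Within the RB family the makeup differed between fractions in every mouse. Rb1 was 80.7%, 74.9%, 59.9% and 61.2% of the summed CPM per kb of the 3 genes in Dll1- cells of mice 1 to 4 and 86.8%, 82.6%, 79.6% and 78.4% in Dll1+ cells. Rbl1 was 7.81% to 18.4% in Dll1- and 3.94% to 7.31% in Dll1+ cells, lower in each mouse. The ratio of Rbl2 to Rbl1 in CPM per kb was 1.47, 1.42, 1.17 and 1.60 in Dll1- and 2.36, 2.43, 1.79 and 2.09 in Dll1+ cells, so that the 4 Dll1+ ratios all lay above the 4 Dll1- ratios.

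Within the E2F family, E2f4 alone was 38.8% to 45.2% of the summed CPM per kb of the 7 genes, in both fractions alike. E2f5 was 14.8% to 22.4% in Dll1- and 26.2% to 32.7% in Dll1+ cells, without overlap. The summed level of E2f7 and E2f8 was 2.40 to 3.16 CPM per kb in Dll1- and 0.770 to 1.495 CPM per kb in Dll1+ cells. That of E2f1, E2f2 and E2f3 was 10.4, 9.42, 13.7 and 11.9 CPM per kb in Dll1- and 6.55, 6.98, 8.34 and 10.4 CPM per kb in Dll1+ cells of mice 1 to 4, lower in each mouse, with mouse 4 changing least.

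The wider pathway was described by 6 lists with 59 genes, chosen with earlier results of these data known. Of these genes 32 were lower and 0 higher in Dll1+ over the 4 mice, against 7.04% and 6.98% of tested genes. At an unadjusted p under 0.05 in edgeR 4 were higher, and DESeq2 called 3 higher. Of 25 E2F target genes of S phase, 23 were lower, with a median log2 fold change of -0.82. Rrm1 and Rrm2, the subunits of ribonucleotide reductase that makes deoxyribonucleotides, were at -0.79 and -1.52, and Mcm6 of the replicative helicase at -0.97 (edgeR adjusted p = 0.00534 for each). The other two, named after their values were seen, were Orc1, of the origin recognition complex, at -0.99 (adjusted p = 0.0545) and Tk1, thymidine kinase, at -0.34 (adjusted p = 0.194). Of the 25 targets, called or not, 23 had a RefSeq promoter window, with 30 windows in all. At least 1 E2F-type motif stood in a window of 13 of these genes. The share over all windows, 2.26%, is per window and not per gene.

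**Figure D5:**
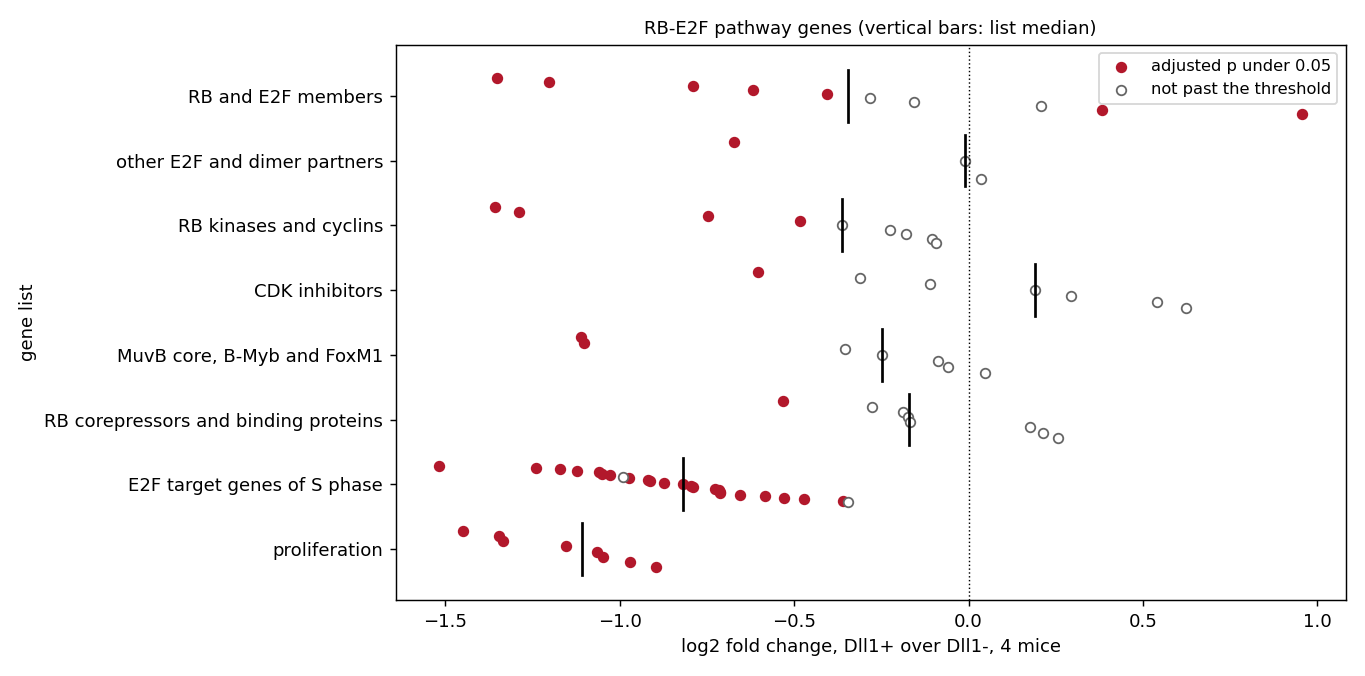
Log2 fold change of Dll1+ over Dll1- over 4 mice (horizontal axis) of each gene in the lists named on the vertical axis, filled red where the adjusted p is under 0.05, with a bar at the list median. The E2F target genes and the proliferation markers all lie below 0, and Rb1 and E2f5 are the 2 filled points above 0.

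Of 9 RB kinases and cyclins, 4 were lower (median -0.36). These were Ccna2 (-1.36) and Ccne1 (-1.29), the cyclins that pair with Cdk2 in S phase and late G1, Cdk4 (-0.48) and, named after its value was seen, Ccne2 (-0.75). The D-type cyclins did not pass the test. Of 7 inhibitors of these kinases, 1, Cdkn2c (p18), was lower (-0.60, adjusted p = 0.0126), and the median was 0.19. Cdkn1b (p27) was at 0.30 (adjusted p = 0.0613) and Cdkn2d (p19) at -0.31 (adjusted p = 0.184).

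The MuvB core forms the DREAM repressor with p130 and, with B-Myb and FoxM1 instead, activates G2 and mitotic genes. Of 7 genes of the core, B-Myb and FoxM1, 2 were lower (median -0.25). They were Mybl2 at -1.11 and Foxm1 at -1.10 (adjusted p = 0.00534 for each), while Rbbp4, of the core, was at -0.25 (adjusted p = 0.0630). Of 8 RB corepressors and binding proteins, 1, the histone methyltransferase Suv39h1, was lower (-0.53, adjusted p = 0.0218), with Hdac1 at -0.28 (adjusted p = 0.0503) and Arid4b at 0.26 (adjusted p = 0.107). Of the other E2F and the dimer partners, Tfdp1, which pairs with E2f1 to E2f6, was lower (-0.67, adjusted p = 0.00633), and Tfdp2 (0.04) and E2f6 (-0.01) did not pass.

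Markers of proliferation moved with these genes. All 8 were lower in Dll1+ (median -1.11), and their sum was 419.9, 435, 597 and 541 CPM in Dll1- and 163, 167, 265 and 319 CPM in Dll1+ cells of mice 1 to 4. As a ratio of the fractions, the drop in this sum was smallest in mouse 4, as were those of E2f1, E2f2, E2f7 and E2f8, while Rbl1 fell least in mouse 1 and E2f4 in mouse 2. The part of the share of cycling cells in the member values was not tested. Without the mouse term 0 of the 59 list genes were called in edgeR, although 31 were lower at an unadjusted p under 0.05. With 1 mouse left out 16 to 34 were called, against 2.25% to 13.1% of tested genes, the fewest without mCh mouse 3.

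The genes whose log2 CPM over the 8 libraries was most like each member's were taken from 13268 protein-coding genes, as a description over libraries that share mice, sorting and 2 reporters. For E2f7 these were Chek1, Cit and Zwilch (Pearson r 0.989, 0.987 and 0.983), for E2f8 Ticrr, Nek2 and Cep55 (0.989 each), and for E2f2 Traip, Eme1 and Exo1 (0.991, 0.99 and 0.989). Most of these 9 are known for roles in DNA replication, repair or mitosis. For E2f1 they were Cct3, Gars and Ran (0.997, 0.995 and 0.995), which serve protein folding, glycyl-tRNA charging and nuclear transport, and for E2f4 Mrps18b, Poc1b and Nop9 (0.989, 0.984 and 0.984).

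The other members had other genes. For Rb1 they were Lonrf1, Rab10 and Atp6v1a (r 0.991, 0.99 and 0.988), for Rbl1 Palb2, Irak1 and Armt1 (0.994, 0.989 and 0.979), and for Rbl2 Zmat1, Nr3c1, the glucocorticoid receptor, and Zfp712 (0.998, 0.995 and 0.994). For E2f3 they were Wdr3, Usp37 and Ube4b (0.976, 0.976 and 0.968) and for E2f5 Tns4, Ifitm10 and Tulp1 (0.998, 0.969 and 0.959). Between members, E2f7 and E2f8 had an r of 0.936 and E2f2 and E2f8 of 0.941, Rb1 and E2f1 of -0.957, and E2f1 and E2f4 of 0.98, each over the same 8 libraries, in which the reporters differ as given above.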

How the data were processed

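RNA of 8 sorted fractions from 4 mice was sequenced with a stranded kit, and the authors quantified the reads with salmon against GENCODE M20 (GRCm38.p6) and summed transcripts to genes with tximport. The deposited values are estimated counts per gene, which were rounded to whole numbers here. Gene symbols, lengths and positions came from GENCODE M21 of GRCm38, and promoter sequences from RefSeq. Genes passing edgeR's filterByExpr on Dll1 status were tested with edgeR 4.0.16 (quasi-likelihood, robust, TMM factors, R 4.3.3), with Benjamini-Hochberg adjustment over all tested genes and a threshold of 0.05. CPM use TMM-scaled totals. Standard errors are the absolute log2 fold change over the square root of F. Likeness used log2 CPM with a prior count of 2 among genes with a mean CPM of at least 1.

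Dll1+ and Dll1- libraries were paired by the mouse identifier in the labels, and mouse was a term in those fits, as in the study's model. Deviations from group means correlated at -0.0472 between fractions of the GFP mice and at 0.554 in the mCh mice. Reporter comparisons used 4 groups with 1 common spread. The interaction tested the difference of the Dll1 effect. Alternatives were RLE factors, DESeq2 1.42.0, limma-voom 3.58.1 with mouse as a random effect, other filters, fits of fewer libraries and each mouse left out. The fits were tested on simulated data with 200 changed genes. At a log2 change of 0.7 they recovered 50 of 104 over the 4 mice, 23 of 90 in the GFP mice and 21 of 102 in the mCh mice. For the interaction 9 of 104 were recovered. At a log2 change of 1.5 these were 78 of 96, 67 of 110, 60 of 98 and 54 of 96. False calls were 0% to 6.25% of calls.

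The named genes were all members, up to 3 genes of lowest p per pathway list and the 3 most correlated genes per member. The members and lists were chosen with earlier results of these data known. Totals of 27301396 to 123907626 counts set the precision of each library, and 2 mice per reporter set that of the comparisons.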

Additional observations from a re-analysis of the deposited data

Results flagged for a closer look

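One member had a library that stood apart from the other 3 of its fraction. E2f3 was at 15.1 CPM in the Dll1+ cells of mCh mouse 3 and at 19.6, 20.4 and 19.7 CPM in the Dll1+ cells of GFP mouse 1, GFP mouse 2 and mCh mouse 4. On the log2 scale the gap to the nearest library was 0.863 of the range of the 4, above the 95% limit of Dixon's test for 4 samples. For each member the 4 Dll1- libraries, the 4 Dll1+ libraries and the 4 within-mouse differences were examined, 30 groups in all, and chance passes this limit in about 1 in 20 groups. The Dll1- library of mCh mouse 3 had 18.2 CPM, so E2f3 was lower in Dll1+ in that mouse, as it was in both GFP mice.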

How the results depend on the processing

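RLE factors, DESeq2, no filter and a minimum of 10 counts in every library left 7 or 8 members called over the 4 mice. The shares of tested genes called were 15%, 23.8%, 7.15% and 18.8%, in that order. Rb1 rose and E2f1, E2f7 and E2f8 fell under each setting. Without the replicate block 0 members, 0 of 59 pathway genes and 0 of 25 E2F targets were called over the 4 mice, where 0 of 18322 tested genes were. In the GFP mice 1 member was called, against 1.5% of tested genes, and in the mCh mice 0, against 1.16%. In the mCh mice 7 members were called with no filter, against 10.4% of tested genes. With that reporter fitted alone 0 were, where 0 of 19945 tested genes were. In the Dll1- reporter comparison with only the Dll1- libraries 2 members were called, against 28.3%. With mouse as a replicate block in the reporter comparisons, as a random effect, 3 members were called in Dll1- and 4 in Dll1+ cells. The shares of tested genes called were 33.2% and 27.6%. The cause was not tested.

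Leaving out 1 mouse gave 1 to 7 members over the 4 mice, 16 to 34 pathway genes, 12 to 23 E2F targets, 0 to 6 members in GFP, 1 to 4 in mCh, 0 for the interaction, 0 to 5 in the Dll1- and 0 to 7 in the Dll1+ reporter comparison. A reporter with 1 mouse left is assumed to vary like the other. Small differences changed sign. The interaction of Rbl1 was -0.029 with RLE, -0.029 with DESeq2, -0.027 with no filter and -0.0045 with the minimum of 10, and that of E2f4 -0.0035, -0.0026 and -0.0011 with the first 3. Over the left-out mice the interaction ran from -0.037 to 0.018 for Rbl1, -0.13 to 0.34 for E2f1, -0.032 to 0.60 for E2f2, -0.042 to 0.41 for E2f3, -0.19 to 0.25 for E2f4 and -0.18 to 0.61 for E2f7. The Dll1+ against Dll1- change in the mCh mice ran from -0.052 to 0.18 for Rbl2 and -0.30 to 0.15 for E2f3. The mCh against GFP change ran from -0.16 to 0.082 for E2f5 and -0.20 to 0.33 for E2f7 in Dll1- cells, and from -0.042 to 0.23 for E2f5 in Dll1+ cells.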
